A study of Homo sapiens with 46 samples.

Results

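Some mRNAs are plentiful in a cell but carry few ribosomes. Here 56 such transcripts, of 63691 transcript rows measured, were followed in H1 human embryonic stem cells, an established line, as the cells turned toward a neural fate. They were chosen by level in undifferentiated control cells. Each had an mRNA level of at least 30 CPM (counts per 1000000 counts of the file) in all 4 mRNA libraries of those cells. Each also had a log2 ratio of footprint CPM plus 0.5 to mean mRNA CPM of at most -2 in all 4 footprint libraries. Of 107 rows that passed, adjacent ones formed 56 runs, and from each run the row with the most counts in these 8 libraries was kept. The values in those 8 libraries chose the members and are given only as a description.

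A ribosome protects the stretch of mRNA it sits on from nuclease, and these protected pieces, the ribosome footprints, are sequenced. Footprints relative to mRNA give the translational efficiency (TE) of a transcript. Abundant RNAs with low TE generally include noncoding RNAs, which ribosomes hardly enter. They also include mRNAs whose 5′ leader keeps initiation low, for instance through upstream reading frames or structure. Which of these kinds the members belong to cannot be read from the files, which give identifiers without gene names, positions or strand. None of the 63691 identifiers matched the 4 reference tables used here. Members are therefore called by identifier (4 of them), or by rank from 1, the lowest ratio in hES control cells, to 56, and by the length value deposited beside each count, whose unit is not stated.

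Cells carried a lentiviral short hairpin against KBTBD8 (shKBTBD8), one against TCOF1 (shTCOF1), or a control hairpin (shControl). KBTBD8 recruits substrates to a CUL3-based ubiquitin ligase. Treacle, the product of TCOF1, acts in the nucleolus in the making of ribosomal RNA. All cells grew without feeder cells and were sampled undifferentiated (hES) or on day 1, day 3 or day 6 of their conversion to neural cells (ND1, ND3 and ND6). A first set of 32 libraries holds shKBTBD8 and shControl at the 4 stages, 2 replicates per group, in mRNA and in footprints. A second set of 14 libraries holds 1 library per assay of shKBTBD8 and of shTCOF1 at hES and at ND3, with 2 of shControl at hES and 1 at ND3. The sets were told apart by how the titles are written. Whether replicates are separate cultures is not stated in the labels. A p-value therefore reflects the spread between these samples only, and that spread may be technical. Without gene names, the levels of KBTBD8, TCOF1 and of stem cell or neural markers, which would check the labels, are not reported here.

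Members had far fewer footprint counts than mRNA counts. In the first set, files summed to 34.3 to 57.4 M counts for mRNA and 2.31 to 21.1 M for footprints, with isoform rows that share reads counted more than once. The median member had 18.5 to 138 footprint counts per first-set library and 1663 to 3111 mRNA counts. Replicate 2 of shKBTBD8 was the sparsest footprint library at ND3 and at ND6, with 21.8% of the transcripts tested at 0 counts in each, and with 4 and 3 members at 0. Counts of footprint and TE calls against hES over these libraries are given with and without them. So are some of the named members' footprint and TE changes at ND6. Across transcripts, the footprint libraries of hES shControl correlated at 0.926 to 0.980 over the 4 pairs between the sets (Pearson's r of log2 CPM), and at 0.966 and 0.946 between replicates within the sets.

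By the rule, the members had ample mRNA and few footprints. Their mean mRNA level in hES shControl cells had a median of 56.2 CPM and ran to 1845 CPM, beside a median of 62.3 CPM for all 2694 transcripts with at least 30 CPM in those libraries, called abundant transcripts below. Per 1000 of the length value, the median mRNA level was 87.6 CPM for members and 144 CPM for abundant transcripts. The median footprint level per 1000 of the length value was 10.2 CPM for members and 146 CPM for abundant transcripts. The highest of a row's 4 ratios lay between -2.1 and -2 for 10 members, just inside the limit. It lay between -2 and -1.9 for 23 rows just outside, the nearest at -1.99. The lowest mRNA level of a member in any of the 4 libraries was 30.9 CPM, and the nearest row outside had 29.8 CPM.

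Members were longer by the deposited length value, which the rule did not use. The median length value was 727.5 for members (middle range 394 to 1040), 465 for abundant transcripts and 390 for all transcripts in the fitted table. Of the members, 5.36% had a length value under 200, against 19.9% of abundant transcripts. From 800 to under 1600 lay 33.9% of members and 19.9% of abundant transcripts, and 14.3% and 7.61% were at 1600 or above. These shares are descriptions, since members can be isoforms of 1 gene.

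Some members sit beside rows with a higher footprint ratio. An abundant row lay within 3 rows of 45 of the 56 members in file order, and for 10 of these a neighbour had a ratio above -1. For the other 35 no neighbour was above -1. The same count over all abundant transcripts was not made. The lowest-ranked member, of length value 191, is one of them, with a neighbour at 0.38 on the log2 scale while its own mean ratio was -5.37. The members are also not all separate: 10 of them share a group of near-identical rows with another member, which leaves 51 groups. Reads shared between neighbouring isoforms or with an antisense transcript cannot be told apart in these counts, so values of such rows are uncertain.

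The first question was whether the low footprint share holds in hES cells that did not choose the members. In shKBTBD8 hES cells of the first set, all 56 members had lower footprints than mRNA, relative to the other transcripts. The edgeR quasi-likelihood test of TE level called 56 of 56 lower at an adjusted p under 0.05, against 15% of all 17685 transcripts and 21% of abundant transcripts called lower. The spread in this test was estimated over all first-set libraries, among them those of hES shControl. The median TE level was -2.76 (log2) for members, 0.17 for abundant transcripts and -0.09 for all. The highest member level was -1.48 ± 0.26 (SE; adjusted p = 0.00011, edgeR), for rank 56, and the lowest -4.88 ± 0.59, for rank 5, whose footprint count was 0 in 1 of the 2 libraries. The 56 calls stood when any of the 4 libraries was left out.

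**Figure D1:**
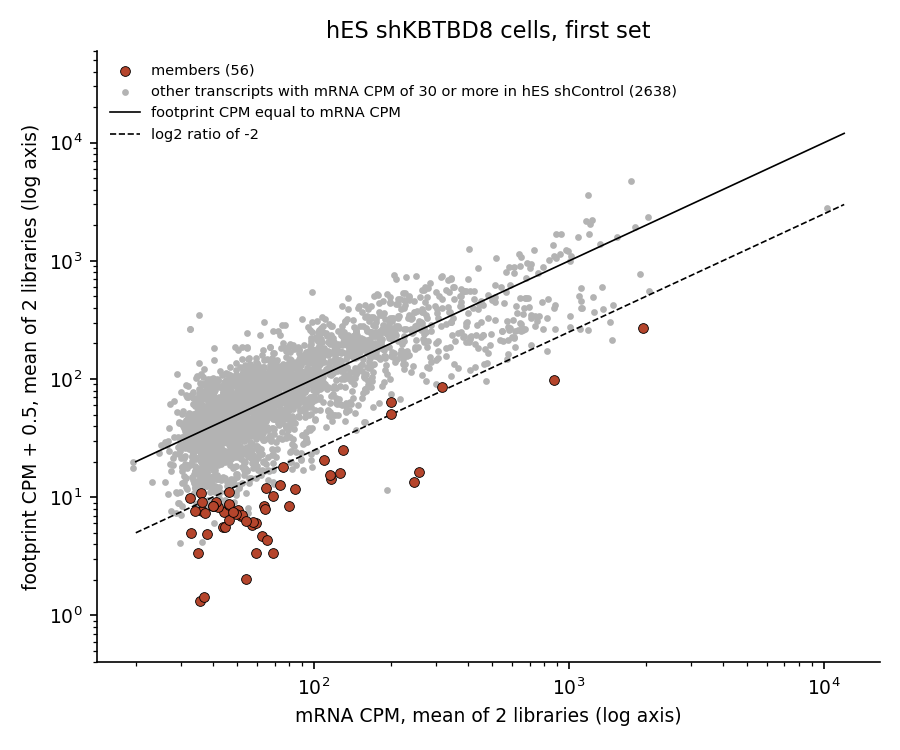
mRNA CPM (x, log axis) against footprint CPM plus 0.5 (y, log axis) in hES shKBTBD8 cells of the first set, mean of 2 libraries. Of the 56 members (red), 47 had a log2 ratio of at most -2 (dashed line) in both libraries, while the other abundant transcripts (grey) spread around the line of equal CPM.

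The order of the members held in part. Ratios of single members correlated at 0.71 between replicates 1 and 2 of hES shKBTBD8 (Pearson's r across 56 members, which are not independent), and at 0.70 between shTCOF1 and shKBTBD8 of the second set. Between the shKBTBD8 hES cells of the second and first set the correlation was 0.38. Replicates 1 and 2 are divided by the same mean mRNA CPM, which can raise their correlation. These are descriptions over transcripts that share libraries and depth.

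Counted library by library, most members kept a ratio of at most -2 at hES. Against the mean mRNA CPM of the same set, stage and hairpin, 53 and 47 of 56 members were at most -2 in the shKBTBD8 libraries of the first set. The counts were 52 in shKBTBD8 and 54 in shTCOF1 cells of the second set. The background was the share among transcripts with at least 30 mRNA CPM in that group, so its base differs by group. It was 4.41% and 4.48% in the first set, and 5.38% and 4.75% in the second. In all 4 libraries 44 members were at most -2, and no member was above -2 in all 4. These joint counts were not made over other transcripts.

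At later stages fewer members were below that limit. Each background again covers transcripts with at least 30 mRNA CPM in that group, while all 56 members are counted. Of the members, 41 reached that mRNA level at ND6 in the first set, in shKBTBD8 and in shControl cells. At ND1, 47 and 45 members were at most -2 in shKBTBD8 libraries (background 4.72% and 4.9%), and 50 and 46 in shControl libraries (4.85% and 4%). At ND3 the counts were 39 and 37 in shKBTBD8 libraries (background 6.48% and 8.63%), and 29 and 44 in shControl libraries (6.24% and 8.14%). At ND6 they were 31 and 34 in shKBTBD8 libraries (6.79% and 10.8%), and 31 and 30 in shControl libraries (7.55% and 8.34%). The second set at ND3 gave 42 in shKBTBD8 (7.08%), 42 in shTCOF1 (5.08%) and 41 in shControl cells (6.39%). The 2 first-set control libraries at ND3 stood apart from each other, with 29 members in replicate 1 and 44 in replicate 2.

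The median ratio of the members was nearer 0 at ND6 than at hES. In shKBTBD8 cells of the first set it was -2.85 at hES, -2.56 at ND1, -2.56 at ND3 and -2.30 at ND6. In shControl cells it was -2.79 at hES, where the rule chose the members, -2.63 at ND1, -2.23 at ND3 and -2.15 at ND6. Median ratios of the transcripts with at least 30 mRNA CPM in each group stayed between -0.18 and 0.06 in the first set. Since the members were chosen for a low ratio at hES, a move upward away from that stage is favoured by the choice itself and is described without a test.

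**Figure D2:**
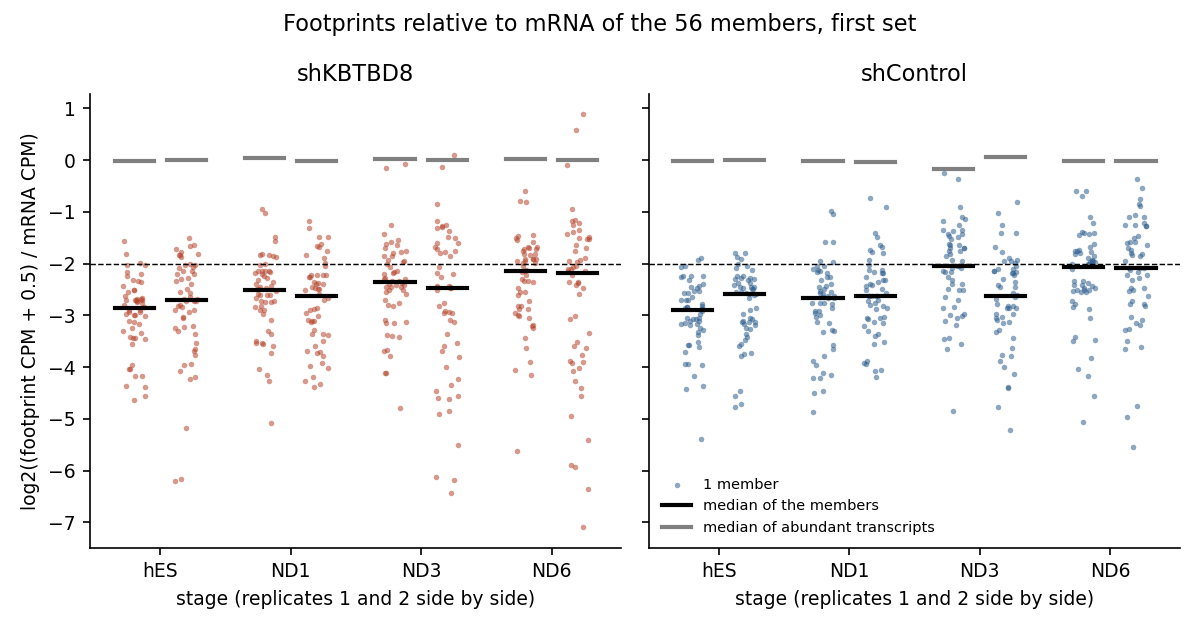
Log2 ratio of footprint CPM plus 0.5 to the mean mRNA CPM of the same stage and hairpin (y) of each member (points) in each first-set footprint library by stage (x), in shKBTBD8 (left) and shControl cells (right). Black bars are medians of the 56 members, and the dashed line is -2. Grey bars are medians of transcripts with at least 30 mRNA CPM at that stage and hairpin. Member medians lie between -2.90 and -2.04, below every grey bar.

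How long single members stayed low differed widely. The counts over several libraries below were made for members only, so they stand without a background. Of 19 footprint libraries outside the rule, the median member was at most -2 in 16, and 12 members in all 19. Over the 15 libraries of ND1, ND3 and ND6, 44 members were at most -2 in 8 or more and 2 members in none. The 12 include ranks 1 to 4 and uc001txp.3, the most abundant member. The 2 are uc009xje.3 and uc021pnc.1, described next.

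Both of these transcripts lost mRNA faster than footprints as hES cells converted. They lie 2 rows apart, have length values of 204 and 302, and share 1 group of near-identical rows, so they count as 1 observation. The mRNA of uc021pnc.1 was 25.4 and 26.4 CPM at ND6 in shKBTBD8 cells, against 293 and 341 CPM at hES. Its footprints were 16.6 and 38.0 CPM at ND6, against 77.5 and 92.6 CPM at hES. Neither assay overlapped between the stages. The mRNA fell by 3.57 ± 0.13 (log2, SE; adjusted p = 4.94e-11) and the footprints by 1.89 ± 0.33 (adjusted p = 0.000394, edgeR), a TE change of 1.60 ± 0.33 (adjusted p = 0.00923). Without footprint replicate 2 of shKBTBD8 at ND6 its footprint change was -2.52 (adjusted p = 9.65e-05, edgeR). In uc009xje.3 the mRNA was 16.2 and 17.1 CPM at ND6 in shKBTBD8 cells, against 187 and 214 CPM at hES. Its footprints were 9.08 and 30.3 CPM at ND6, against 44.5 and 56.5 CPM at hES, and its TE change was 1.79 ± 0.42 (adjusted p = 0.0251, edgeR).

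The size of this TE change rests on 1 sparse library. Without footprint replicate 2 of shKBTBD8 at ND6, TE changed by 1.01 (adjusted p = 0.273, edgeR) for uc021pnc.1 and by 0.87 (adjusted p = 0.83) for uc009xje.3. Without any 1 of the mRNA libraries of hES or ND6, the adjusted p was 0.0333 to 0.0588 for uc021pnc.1 and 0.0676 to 0.128 for uc009xje.3 (edgeR), with the direction kept. The call of uc009xje.3 also ended without footprint replicate 1 at hES (adjusted p = 0.0621, edgeR). In shControl cells, the same transcripts had mRNA of 25.1 and 27.0 CPM for uc021pnc.1 at ND6, against 90.1 and 96.1 CPM at ND1. Their TE differed by 0.16 ± 0.34 and 0.06 ± 0.44 between ND6 and ND1 in those cells. Neither difference passed the test (edgeR). A rise before ND1 falls outside that comparison. The change from hES to ND1 was not tested in shControl cells. For shKBTBD8 cells, TE at ND1 was above hES by 0.75 ± 0.32 in uc021pnc.1 and by 0.73 ± 0.39 in uc009xje.3. Neither of these rises passed the test (edgeR). In the second set, at ND3 against hES over shKBTBD8 and shTCOF1 cells, TE changed by 1.27 ± 0.17 and 1.35 ± 0.18, with an adjusted p of 0.0737 for both (edgeR).

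In the most abundant member, mRNA rose while footprints fell. uc001txp.3, of length value 298, had 2714 and 2792 mRNA CPM at ND6 in shKBTBD8 cells, against 1889 and 2011 CPM at hES. Its footprints were 184 and 117 CPM at ND6, against 300 and 237 CPM at hES, with no overlap between the stages in either assay. The mRNA rose by 0.54 ± 0.12 (log2; adjusted p = 0.00156), the footprints fell by 1.05 ± 0.31 (adjusted p = 0.0242), and TE changed by -1.62 ± 0.37 (adjusted p = 0.0203, edgeR). In shControl cells, whose levels this comparison does not use, ND6 against ND1 gave a TE change of -1.57 ± 0.37 (adjusted p = 0.0425, edgeR). Both tests share 1 estimate of the spread, taken over all first-set libraries. In the second set TE changed by -1.12 ± 0.23 at ND3 (adjusted p = 0.139, edgeR), and its footprints fell to 188 and 188 CPM in shKBTBD8 and shTCOF1 cells, against 359 and 371 CPM at hES. Leaving out 1 library kept the direction each time but ended the call in shKBTBD8 cells for 6 of the 8 libraries (adjusted p up to 0.368, edgeR, without footprint replicate 2 at ND6). The call in shControl cells ended for 7 of the 8 (up to 0.448, edgeR, without footprint replicate 2 at ND6). Its footprint call in shKBTBD8 cells ended without footprint replicate 1 at hES (-0.76, adjusted p = 0.197) or replicate 2 at ND6 (-0.75, adjusted p = 0.253, edgeR).

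Over all members, TE changes that passed the test were few. At ND1 against hES in shKBTBD8 cells edgeR called 0 of 56 (background 0.00565% of all and 0.0371% of abundant transcripts), and DESeq2 also called 0. In edgeR 5 members and 448 of all 17685 transcripts had an unadjusted p under 0.05. At ND3 it called 3 higher and 0 lower, of which uc009xje.3 and uc021pnc.1 share 1 group and are 1 observation (background 0.645%, abundant 4.01%, or 0.0339% and 0.148% higher). At ND6 it called 2 higher, again these 2 rows of 1 group, and 1 lower (background 0.961%, abundant 5.75%, or 0.0509% and 0.223% higher). The direction of most calls among other transcripts was down: 104 of the 108 called abundant transcripts at ND3 had lower TE. Median TE changes of the members were 0.16 at ND1, 0.21 at ND3 and 0.17 at ND6, beside 0.00, -0.01 and -0.02 for abundant transcripts. The third call at ND3 was rank 4, of length value 4284, named after its value was seen. Its footprints were 9.71 and 15.8 CPM at ND3 in shKBTBD8 cells, against 2.10 and 0.997 CPM at hES, and its TE changed by 1.89 ± 0.44 (adjusted p = 0.0409, edgeR). All TE calls at ND3 and at ND6 were lost without the sparse shKBTBD8 footprint replicate 2 of that stage, and without replicate 1 there were 10 at ND3 and 13 at ND6. They were also lost without any 1 of the 4 mRNA libraries compared, with the exception of 1 call at ND6 without mRNA replicate 1 at hES.

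In shControl cells after hES, whose libraries the rule did not use, 1 TE change passed the test. At ND6 against ND1, edgeR called 0 members higher and 1 lower, uc001txp.3 (background 0.628%, abundant 3.45%). The TE change was above 0 for 44 of 56 members, with a median of 0.33, beside 41.7% of abundant transcripts above 0 and their median of -0.08. In the second set at ND3 against hES, TE was above 0 for 45 of 56 members and 54.8% of abundant transcripts. The median was 0.32 for members, beside 0.04 for abundant transcripts. There edgeR called 0 of 56 (background 0%). An unadjusted p under 0.05 was seen for 22 members and for 1336 of all 17621 transcripts (edgeR). DESeq2 called 7 members higher and 2 lower, and its share over all transcripts is not given.

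No difference in member TE between shKBTBD8 and shControl cells passed the test. Both edgeR and DESeq2 called 0 of 56 at ND3 and 0 of 56 at ND6 (background 0% at both in edgeR). In edgeR 5 and 3 members had an unadjusted p under 0.05, beside 673 and 425 of all 17685 transcripts. Median differences of the members were -0.02 and -0.14. Without footprint replicate 1 of shKBTBD8, which leaves the sparse replicate alone, there were 11 calls at ND3 and 4 at ND6. The share of all transcripts called without that replicate is not given. The ND6 against ND1 change in TE differed between the hairpins for 0 members (edgeR, background 0%). The DESeq2 count is not given. An unadjusted p under 0.05 was seen for 1 member and for 293 of all 17685 transcripts (edgeR).

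In mRNA the share of members that changed was near that of other transcripts at later stages of the first set. It was higher than theirs at ND1 and in the second set, a difference that was not tested. In these bulk samples, fewer cells of a type and less RNA per cell cannot be told apart. Against hES in shKBTBD8 cells, 7 rose and 13 fell at ND1 (35.7% of 56, background 27.2% of all and 26.7% of abundant transcripts), 11 rose and 19 fell at ND3 (53.6%, background 49.4%, abundant 52.4%), and 11 rose and 22 fell at ND6 (58.9%, background 59.4%, abundant 65.2%, by edgeR at an adjusted p under 0.05). Median changes were -0.16, -0.06 and -0.23, beside -0.12, -0.24 and -0.36 for abundant transcripts. Leaving out any of the 4 libraries compared left 11 or 12 calls at ND1. At ND6 against ND1 in shControl cells, 14 rose and 17 fell (55.4%, background 49.2%, abundant 55.1%). At ND3 of the second set the counts were 10 higher and 28 lower (67.9%, background 50.6%, abundant 57.7%). There 50% of members were lower, beside 4601 of all 17651 and 1020 of 2694 abundant transcripts. Higher were 17.9% of members, 4339 of all and 534 of the abundant transcripts.

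A few members rose in mRNA and in footprints alike. Rank 56, of length value 4569, had 697 and 696 mRNA CPM at ND6 in shKBTBD8 cells, against 198 and 201 CPM at hES. Its footprints were 214 and 240 CPM at ND6, against 67.2 and 59.9 CPM at hES, with no overlap in either assay. The mRNA rose by 1.85 ± 0.12 and the footprints by 1.62 ± 0.32 (adjusted p = 2.28e-08 and 0.00122, edgeR). Rank 54, of length value 628, had 79.9 and 87.5 mRNA CPM at ND6, against 32.4 and 40.4 CPM at hES, and footprints of 28.9 and 32.4 CPM, against 7.44 and 9.67 CPM. Its mRNA rose by 1.25 ± 0.13 and its footprints by 1.62 ± 0.34 (adjusted p = 1.82e-06 and 0.00229, edgeR). Without the sparse footprint replicate 2 at ND6, the footprint change was 1.55 for rank 56 and 1.56 for rank 54 (adjusted p = 0.0113 and 0.0127, edgeR). Rank 1 rose in mRNA to 140 and 145 CPM at ND6, against 53.1 and 65.7 CPM at hES (1.31 ± 0.15, adjusted p = 3.47e-06, edgeR). Its footprints were 7.55 and 6.92 CPM at ND6, against 1.89 and 3.89 CPM at hES, and did not pass the test.

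Among the falls, uc001zkj.2, of length value 496, had few footprints left at ND6. Its mRNA was 16.1 and 42.9 CPM at ND6 in shKBTBD8 cells, against 134 and 118 CPM at hES. Its footprints were 2.71 and 0 CPM at ND6, or 23 and 0 counts, against 11.9 and 19.04 CPM at hES. The mRNA fell by 2.07 ± 0.34 (adjusted p = 0.000101) and the footprints fell by 3.18 ± 0.90 (adjusted p = 0.0202, edgeR), a fitted value that depends on the prior count since 1 library is at 0. Without that library the footprint change was -2.59 (adjusted p = 0.123, edgeR). In shControl cells its mRNA fell to 4.79 and 8.06 CPM at ND6, against 69.1 and 55.5 CPM at ND1 (-3.23 ± 0.36, edgeR). Rank 24, of length value 113, had mRNA of 947 and 841 CPM at ND6 in shKBTBD8 cells, against 841 and 913 CPM at hES. Its footprints fell to 53.5 and 28.5 CPM at ND6, against 109 and 84.8 CPM at hES (-1.42 ± 0.37, adjusted p = 0.0109, edgeR). Without footprint replicate 2 at ND6 that call ended (-1.05, adjusted p = 0.153, edgeR).

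**Figure D3:**
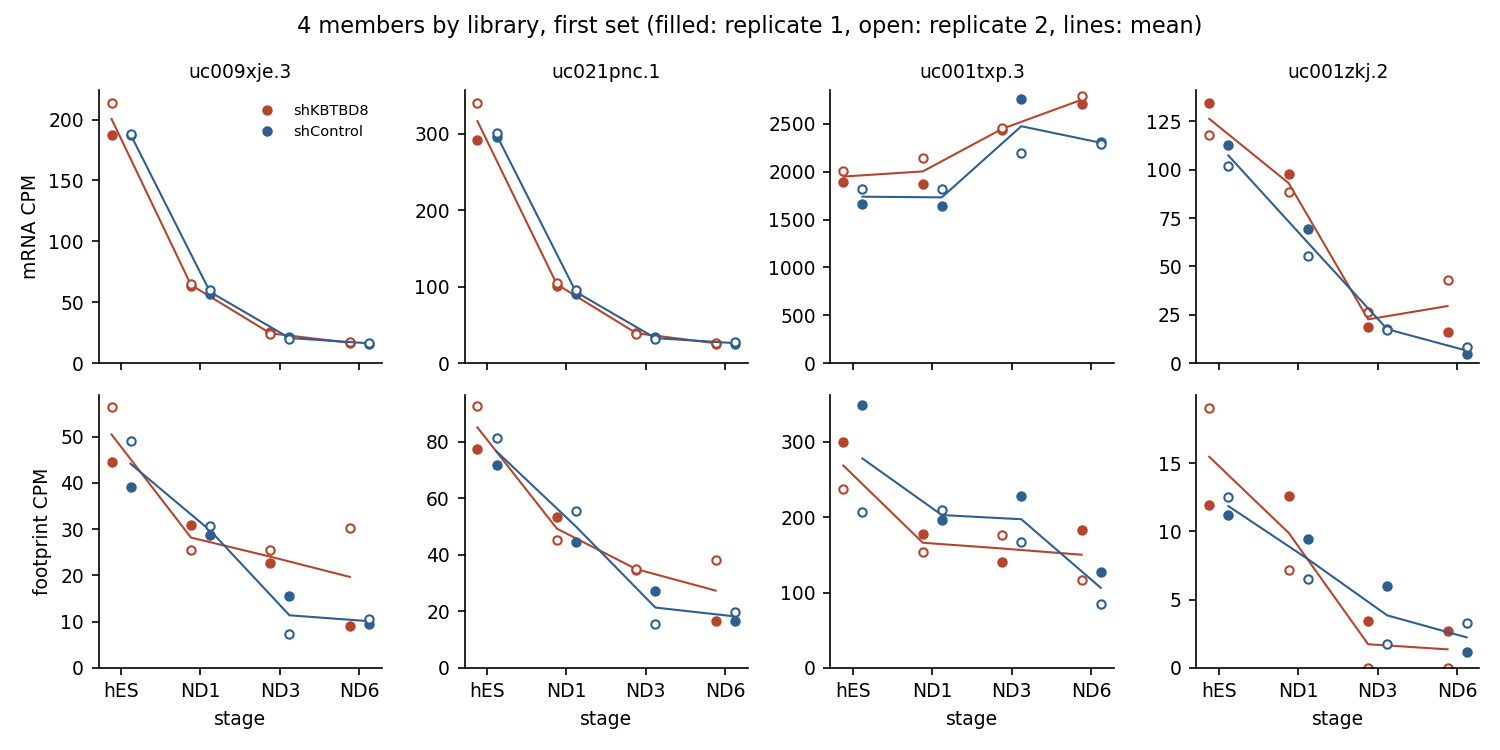
mRNA CPM (top) and footprint CPM (bottom) by stage (x) of the 4 members called by identifier, in first-set libraries of shKBTBD8 (red) and shControl cells (blue). Points are single libraries and lines join means. In 3 of the 4 members mRNA falls steeply over the stages, and in uc001txp.3 mRNA rises while footprints fall.

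Fewer members passed the test in footprints than in mRNA, as was so for all transcripts (13.5% against 59.4% at ND6). In shKBTBD8 cells against hES, 0 members passed at ND1 (edgeR, background 1.45% of all and 2.75% of abundant transcripts), while DESeq2 called 1. The DESeq2 share over all transcripts is not given. In edgeR 5 members and 1703 of all 16745 transcripts had an unadjusted p under 0.05. At ND3, 3 rose and 2 fell (background 7.61%, abundant 18.2%), and at ND6, 5 rose and 6 fell (background 13.5%, abundant 30.6%). At ND6, 9 members passed in both assays, 24 in mRNA alone and 2 in footprints alone. The same split over all transcripts was not made, so nothing particular to the members is read from it. The footprint calls were 9 without replicate 1 of shKBTBD8 at ND3, 4 without the sparse replicate 2 at ND3, 3 without replicate 1 at hES and 2 without replicate 2 at hES. At ND6 they were 6 without replicate 2 of shKBTBD8 and 7 without replicate 2 at hES. At ND6 against ND1 in shControl cells 0 rose and 4 fell (background 9.42%, abundant 21.9%), and leaving out any 1 of the 4 libraries left 1 call. At ND3 of the second set 3 were higher and 6 lower (background 9.62%, abundant 26.8%), and 2 calls were left without any 1 of the knockdown libraries.

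**Figure D4:**
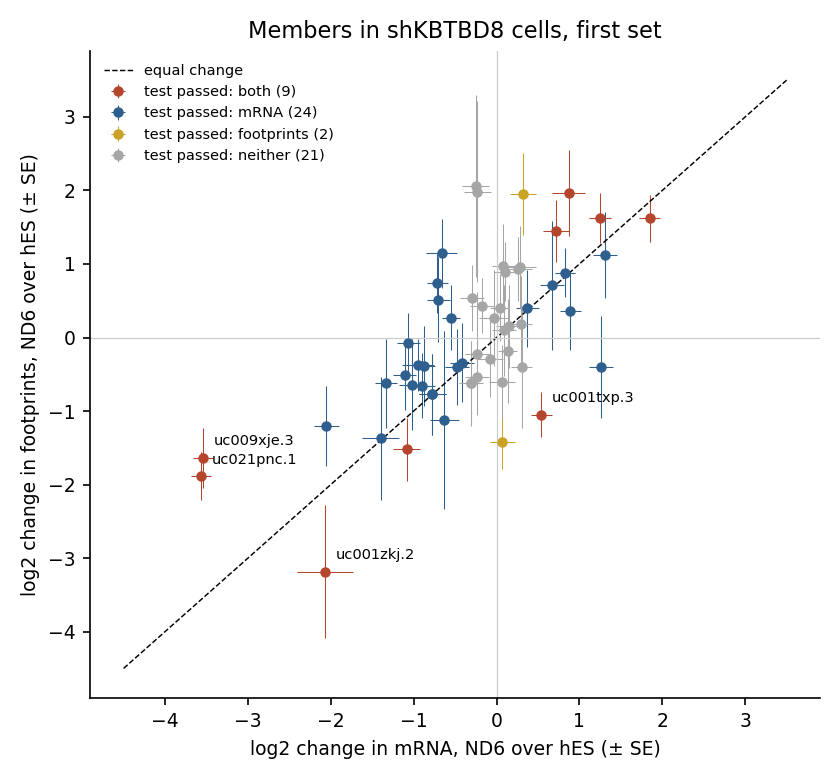
Log2 change in mRNA (x) and in footprints (y) of the 56 members at ND6 over hES in shKBTBD8 cells of the first set, with SE as bars. Colours mark which assay passed the edgeR test (9 both, 24 mRNA alone, 2 footprints alone, 21 neither), and points above the dashed line had higher TE at ND6. The same split over all transcripts was not made.

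In mRNA, few members differed between shKBTBD8 and shControl cells at later stages. At ND3, 1 was higher and 5 lower in shKBTBD8 cells (10.7% of 56, background 8.42%, abundant 6.35%), and at ND6, 4 were higher and 0 lower (7.14%, background 3.99%, abundant 2.6%, by edgeR). These shares are near the background and few in number, and nothing particular to the members is read from them. Rank 39, of length value 1059, was higher at both, by 0.87 ± 0.15 at ND3 (adjusted p = 0.00194) and 0.92 ± 0.15 at ND6 (adjusted p = 0.00269, edgeR). For uc001zkj.2 the mRNA was higher by 2.21 ± 0.35 at ND6 (adjusted p = 0.00209, edgeR), with 16.1 and 42.9 CPM in shKBTBD8 cells against 4.79 and 8.06 CPM in shControl cells. The groups do not overlap, but the shKBTBD8 libraries differ from each other more than the shControl libraries do. Rank 52 was higher by 0.92 ± 0.12 at ND6 (adjusted p = 0.000568, edgeR), with 127 and 133 CPM in shKBTBD8 cells against 65.1 and 74.9 CPM in shControl cells. At ND3, 2 or 3 calls were left without replicate 1 of shControl or either replicate of shKBTBD8, and at ND6, 1 was left without replicate 1 of shControl. The ND6 against ND1 change in mRNA differed between the hairpins for 1 member, rank 52 (edgeR, background 1.34%).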

How the data were processed

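Ribosome footprints and mRNA were counted in 46 libraries of H1 cells. The deposited values are whole-number counts per transcript row, in files of 63691 rows without a header, with a length value of unstated unit beside each count. Per the submitters' processing notes, the build was hg19, and CASAVA 1.8, Bowtie2 2.0.6 and TopHat2 2.0.7 were used. For the counting program, the strand setting and reads with several positions, the sources used here say nothing.

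CPM was computed over each file's sum. The members, the groups compared and the rule for identifiers were chosen with earlier results of these data known. Identifiers printed are those with the largest rise and fall in TE among members past the test at ND6 against hES in shKBTBD8 cells, and after these in mRNA, at most 2 each way.

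Isoform rows often hold the same reads. Where the mean count was 10 or more, rows that lay within 20 rows of each other and differed by a chi-square per degree of freedom under 2 over the 46 libraries were grouped. The table fitted holds 17685 rows, 1 for each of 17680 groups and 5 more where members share a group. Tests used edgeR 4.0.16 in R 4.3.3 (TMM factors, filterByExpr, quasi-likelihood F-test, prior count 2, Benjamini-Hochberg adjustment over all transcripts, threshold 0.05), with 16 libraries per assay in the first set and 7 in the second. TE was the interaction of assay and group in 1 model. The second set leaves 2 residual degrees of freedom per assay. The SE of a log2 change is the change over the square root of its F value. Scripts were tested on simulated data. DESeq2 1.42.0, other filters, models and member rules were alternatives. Libraries of the same assay and hairpin at hES, within or between the sets, differed by 10.4 to 40.4 in chi-square per degree of freedom. None was therefore counted as a duplicate. Sequences, gene lists and marker genes were not used here, since no identifier matched a reference table.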

Additional observations from a re-analysis of the deposited data

Results flagged for a closer look

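The change in mRNA from ND1 to ND6 of the member of rank 52, of length value 871, differed between the hairpins. The ND6 against ND1 change was higher in shKBTBD8 than in shControl cells by 0.88 ± 0.17 (log2, SE; interaction in edgeR, adjusted p = 0.0183, 2 replicates per group), and 1.34% of all transcripts were called in this test. In shKBTBD8 cells its mRNA was 127 and 133 CPM at ND6, against 92.0 and 110 CPM at ND1. In shControl cells it was 65.1 and 74.9 CPM at ND6, against 95.9 and 104 CPM at ND1. Its footprints at ND6 were 39.9 and 33.3 CPM in shKBTBD8 cells and 25.9 and 24.1 CPM in shControl cells.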

How the results depend on the processing

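Over all alternatives, 256 counts of members moved by no more than 1.5 times and 71 moved by more. This compares the number of calls only, and not their direction. For single named transcripts 391 values stayed on their side of the threshold, 78 lost and 15 gained the call, and none changed sign. The TE changes over the stages depended most on the setting, and the cause was not tested. Shares of all transcripts called are not given for any alternative below. The member counts therefore stand without a background, and nothing particular to the members is read from them. With DESeq2, TE calls were 6 at ND6 against hES in shKBTBD8 cells, 2 at ND6 against ND1 in shControl cells and 9 in the second set, and footprint calls were 1 at ND1 and 9 at ND3. With every row fitted and no grouping, TE calls were 0 at ND3, 1 at ND6 and 0 at ND6 against ND1. With only the groups compared in the model, TE calls were 0 at ND3, 0 at ND6 and 3 at ND6 against ND1. In that model mRNA calls were 12 at ND1 and 2 for shKBTBD8 against shControl at ND6, and footprint calls were 1 at ND1, 2 at ND3, 5 at ND6 and 16 at ND6 against ND1. With only the knockdown libraries, footprint calls in the second set were 15.

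An mRNA minimum of 100 CPM gave 10 members in place of 56, all 10 called lower in TE level at hES. Of these, mRNA calls were 6 at ND1, 8 at ND3, 9 at ND6, 8 at ND6 against ND1, 1 and 2 for shKBTBD8 against shControl at ND3 and ND6, and 7 in the second set, with footprint calls of 3 at ND3 and 7 at ND6. Adding 0.1 in place of 0.5 gave 60 members, 55 of them shared. Keeping the row with the most counts over all 46 libraries gave the same 56. One row per group of near-identical rows, an alternative chosen after seeing the data, gave 51.

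Leaving out 1 library of a group takes the remaining sample to vary like the other groups. Shares of all transcripts called in such fits are not given, so the member counts stand without a background. TE calls then ranged from 0 to 10 at ND3, 0 to 13 at ND6 and 0 to 1 at ND6 against ND1, and for shKBTBD8 against shControl from 0 to 11 at ND3 and 0 to 4 at ND6. Calls in mRNA ranged from 11 to 12 at ND1, and for shKBTBD8 against shControl from 2 to 7 at ND3 and 1 to 4 at ND6. Footprint calls ranged from 2 to 9 at ND3 and 6 to 11 at ND6, and were 1 at ND6 against ND1 and 2 in the second set each time.

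The replicate numbers do not pair the samples by the labels. Between groups, the difference of replicates 1 and 2 had correlations from -0.09 up to 0.84 (mRNA) and from -0.10 up to 0.32 (footprints), over 0.1 for 20 and 9 of 28 pairs of groups. With the number as a replicate block, TE calls were 4 at ND3 and 4 at ND6, mRNA calls 38 at ND6, and no count moved by over 1.5 times. The median member had as few as 18.5 footprint counts in 1 library, and the part of depth in the number of calls was not tested.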
